A study of Homo sapiens with 9 samples.

Results

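NORAD, OIP5-AS1, TUG1, DANCR, PVT1 and CYTOR are long noncoding RNAs (lncRNAs) studied for functions other than building nuclear bodies. The 6 genes were chosen by symbol, and all 6 were found in both deposited tables, out of 51111 and 51268 gene identifiers listed for PABPN and PABPC. The tables class 5 of them as lncRNA and TUG1 as protein coding. The RNAs come from the human embryonic kidney line HEK293T, crosslinked with 0.1% formaldehyde for 10 min. RNA immunoprecipitation (RIP) was done with an antibody to PABPN or PABPC, the poly(A) binding proteins of nucleus and cytoplasm, and 3 PABPN RIP, 3 PABPC RIP and 3 input libraries of ribodepleted RNA were sequenced. The 3 lysates were each divided between the antibodies, and the same inputs serve both comparisons, so the groups differ in the antibody or its absence, and the labels name no other treatment. A formaldehyde RIP recovers whole complexes, and it was not separated here whether an RNA was bound through its own poly(A) tail.

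Both proteins bind the poly(A) tail, a run of adenosines added to most transcripts of RNA polymerase II. PABPN meets tails before export from the nucleus. PABPC meets them afterwards, and it takes part in translation and in RNA decay. A lncRNA may therefore meet one protein, both or neither, depending in part on whether it has a tail and where it resides. The study adds that both proteins shuttle between the compartments and may be present on the same RNA.

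NORAD is an abundant cytoplasmic RNA that holds the RNA-binding protein PUM2. OIP5-AS1, known as Cyrano in fish, carries an unusually extensive pairing site for the microRNA miR-7. TUG1 is a conserved RNA found in both nucleus and cytoplasm, and an open reading frame has been described in it. DANCR is a short spliced RNA that hosts the snoRNA SNORA26 and takes part in cell differentiation. PVT1 is a long, many-exon neighbour of MYC. CYTOR (LINC00152) is linked to cell growth and has a near-identical copy, MIR4435-2HG.

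In GENCODE 44 on hg38, the build the study also used, NORAD is a single exon at chr20:36045618-36051018 on the minus strand. OIP5-AS1 lies on the plus strand at chr15:41283958-41322392. It overlaps OIP5, which is on the other strand, and NUSAP1 and ENSG00000285920 on its own strand. TUG1 lies at chr22:30969245-30979395 and DANCR at chr4:52712325-52723623, both on the plus strand. CYTOR spans chr2:87454781-87636740, also on the plus strand. All of the span of NORAD and of TUG1 is exonic in at least 1 annotated transcript, whereas introns make up 90.2% of the span of CYTOR.

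Because both proteins bind poly(A) tails, the annotated 3′ ends are shown for the canonical transcripts of 4 of the 6 genes, as the last 30 bases 5′ to 3′ with the poly(A) signal AATAAA in capitals. The ends lie at chr20:36045618-36045647 (NORAD, minus strand), chr15:41322363-41322392 (OIP5-AS1), chr22:30979366-30979395 (TUG1) and chr2:87636711-87636740 (CYTOR).
NORAD end: AATAAAggttattttaaaagcctgtattaa
OIP5-AS1 end: aggaaaAATAAAttgtattaatatatagta
TUG1 end: tattttaAATAAAgaatttttaaaattaaa
CYTOR end: aaAATAAAtgtgtccactatttgctgtcta

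The signal was searched on the transcript strand in the last 50 bases as AATAAA or ATTAAA. All 4 ends above hold AATAAA, and of the 1649 canonical transcripts of the lncRNAs tested, 560 do (34%) and 708 hold either form (42.9%). The canonical transcripts of DANCR and PVT1 hold neither in that window, but 6 of 14 annotated DANCR transcripts and 146 of 190 PVT1 transcripts hold either form. For the other members it was 1 of 1 (NORAD), 43 of 72 (OIP5-AS1), 5 of 20 (TUG1) and 21 of 39 (CYTOR). A match describes the annotated end and is no measure of a tail in these cells.

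The elements for which NORAD and OIP5-AS1 are known are printed next, since the genes that act through them are followed further on. The first 3 of the motifs TGTANATA of NORAD, to which PUM2 binds, are in capitals and lie on the minus strand at chr20:36050182-36050211, chr20:36049803-36049832 and chr20:36049702-36049731.
NORAD motif 1: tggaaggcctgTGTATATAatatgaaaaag
NORAD motif 2: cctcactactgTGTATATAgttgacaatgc
NORAD motif 3: aaatcacatttTGTAAATAcctttttgtta

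NORAD held 15 such motifs on the transcript strand between bases 819 and 4657 of its 5401. Only 2 of the 1649 canonical lncRNA transcripts held more, and 12.7% held any. TUG1 held 2, and the canonical transcripts of the other 4 members held none.

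The miR-7 site lies in the last exon of an OIP5-AS1 transcript of 8881 bases, at chr15:41300574-41300599. The mature microRNA (RefSeq) is shown with its seed in capitals, and the site with the bases that pair with the seed in capitals.
hsa-miR-7-5p: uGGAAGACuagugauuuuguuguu
OIP5-AS1 site: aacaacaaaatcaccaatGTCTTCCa

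Of the 24 bases of miR-7, 23 have their complement in order in this 26-base site. The site is in 12 of the 72 annotated OIP5-AS1 transcripts and not in the canonical one. The best site found with a seed match in any other member had 18 such bases (DANCR and PVT1). A seed match was present in 13.6% of canonical lncRNA transcripts.

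Estimated depth on the listed genes was 36.5 to 52.2 M reads per library. The genes looked up as HEK293T markers, PAX2, LHX1, NEFL, NEFM and INA, were all above the minimum baseMean of 50 in both tables. With PABPN 15526 genes passed that minimum, so it is no test of cell identity. The level given below is the normalised read count, the reads on exons and introns of a gene divided by the size factor of the library, and all levels are on the scale of the PABPN table. The read counts of single libraries were worked back from the deposited means, fold changes and errors. Among the candidates searched, which were not all possible ones, exactly 1 set of whole numbers met the means and fold changes for NORAD, TUG1, DANCR and CYTOR. In simulations at the means of NORAD and of TUG1 only 8 of 40 gave a sole solution, so the check of their counts rests on few cases. Replicate numbers cannot be told from such counts, so libraries are given in order of falling size factor within a group. For OIP5-AS1 2 sets met the criteria and for PVT1 14 did, so these genes are given by group means. Enriched or depleted means a log2 fold change beyond 0.5, an adjusted Wald p from DESeq2 of no more than 0.01 in the authors' deposited table and a mean normalised count (baseMean) above 50.

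With PABPC, 4 of the 6 lncRNAs were enriched (DANCR, NORAD, OIP5-AS1 and TUG1) and the other 2, CYTOR and PVT1, were depleted. For comparison, 38.4% of the 14843 genes tested were enriched and 32.4% depleted, and of the 1722 lncRNA genes tested 21.3% were enriched and 59.8% depleted. With PABPN, 1 of the 6 was enriched, TUG1, and none was depleted (0 of 6 in DESeq2). There the shares were 17.5% enriched and 14.6% depleted of 15526 genes, and 28.3% and 3.94% of 2182 lncRNA genes. At an unadjusted Wald p below 0.05, with no size cut-off, 2 of the 6 were up and 0 down with PABPN. Shares over all genes were not counted at that level. The median log2 fold change of the 6 was 1.06 with PABPC, against -1.26 over 1661 lncRNA genes and 0.11 over 14581 genes tested in both tables. With PABPN it was 0.022, against 0.22 over the lncRNA genes and -0.058 over all. The 6 spread over 5.81 log2 units with PABPC and over 1.39 with PABPN.

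**Figure D1:**
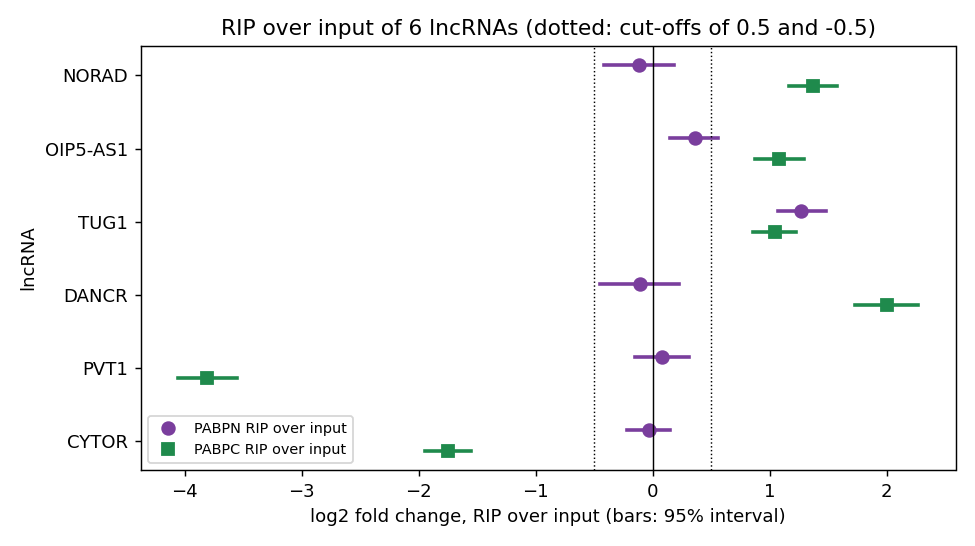
Log2 fold change of RIP over input (x axis) for each lncRNA (y axis), with PABPN as circles and PABPC as squares; bars are 95% intervals from the standard error and dotted lines are the cut-offs. TUG1 is the one member whose PABPN value passes 0.5, while with PABPC the values run from -3.81 for PVT1 to 2.0 for DANCR.

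DANCR had the highest fold change of the 6 with PABPC. Its normalised counts were 1529, 1888 and 2070 in the inputs, 2040, 1694 and 1339 in the PABPN RIPs and 6822, 7619 and 7531 in the PABPC RIPs. All 3 PABPC RIPs lay above every input, whereas the PABPN RIPs and the inputs overlapped. The log2 fold change was 2.0 (SE 0.137, n = 3 per group, DESeq2 adjusted p = 7.36e-47) with PABPC, a 4-fold enrichment, and -0.11 (SE 0.171, adjusted p = 0.65) with PABPN. Of the 4 recovered genes DANCR had the widest spread over the inputs and the PABPN RIPs, with coefficients of variation of 15.1% and 20.7%, and 5.96% over the PABPC RIPs. Its exonic length is 2328 bases in the tables, the shortest of the 6.

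NORAD followed the same course at a higher level. Its normalised counts were 5079, 5259 and 5862 in the inputs, 5702, 5389 and 3838 in the PABPN RIPs, and 13521, 14380 and 13843 in the PABPC RIPs. The PABPC RIPs were all far above the inputs and varied by 3.12% (coefficient of variation), and 1 PABPN RIP library was below all inputs while the other 2 lay among them. The log2 fold change was 1.37 (SE 0.104, n = 3 per group, DESeq2 adjusted p = 3.1e-38) with PABPC, or 2.58-fold, and -0.12 (SE 0.154, adjusted p = 0.589) with PABPN. The library in which NORAD was lowest among the PABPN RIPs was also the lowest PABPN RIP for DANCR and TUG1. For CYTOR it was almost level with the next library, at 3892 against 3899.

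OIP5-AS1 had group means of 5374 in input, 6884 in PABPN RIP and 11387 in PABPC RIP. Its log2 fold change with PABPC was 1.08 (SE 0.107, DESeq2 adjusted p = 2.4e-23), or 2.12-fold. With PABPN it was 0.36 (SE 0.105, adjusted p = 0.00249). This is the 1 member for which the adjusted p passed in the PABPN comparison while the size did not, its 95% interval of 0.15 to 0.56 reaching across the cut-off of 0.5.

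TUG1 was the only one of the 6 enriched with both proteins. Its normalised counts were 4959, 4560 and 4733 in the inputs, 11819, 12232 and 10422 in the PABPN RIPs, and 9394, 9834 and 9980 in the PABPC RIPs. Every RIP library of either kind held at least 9394, above the highest input. The log2 fold change was 1.27 (SE 0.105, n = 3 per group, DESeq2 adjusted p = 5.19e-32) with PABPN and 1.04 (SE 0.0923, adjusted p = 2.33e-28) with PABPC, or 2.42-fold and 2.05-fold. Among the 1661 lncRNA genes, 93.3% had a lower PABPN fold change than TUG1 and 87.7% a lower PABPC fold change.

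CYTOR was depleted with PABPC and level with input in the PABPN RIPs. Its normalised counts were 4235, 4060 and 4064 in the inputs, 4273, 3899 and 3892 in the PABPN RIPs, and 1300, 1148 and 1228 in the PABPC RIPs. The PABPC RIPs lay below all other libraries, and the PABPN RIPs overlapped the inputs. The log2 fold change was -1.75 (SE 0.103, n = 3 per group, DESeq2 adjusted p = 1.66e-63) with PABPC, 3.36-fold lower than input, and -0.035 (SE 0.0953, adjusted p = 0.813) with PABPN.

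Reads of CYTOR can be mistaken for those of its copy. Of the 19261 distinct 75-base stretches in annotated CYTOR transcripts, the length of a read, 8663 (45%) also occur in annotated transcripts of MIR4435-2HG. Introns of the 2 genes were not compared, although reads on introns were counted and introns make up 90.2% of the span of CYTOR. How reads that map to both were treated is not given in the sources used here, so the split between the pair is uncertain. MIR4435-2HG had a PABPN log2 fold change of -0.015 (SE 0.0958) and a PABPC one of -1.73 (SE 0.105). Of the named lncRNAs it lay nearest to CYTOR in the plane of the 2 fold changes, at a distance of 0.0267, smaller than either standard error.

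PVT1, on the plus strand of chromosome 8 at chr8:127794526-128187101, has introns over 93.5% of its span. It was by far the most read of the 6 in input and PABPN RIP, and not in PABPC RIP, with group means of 53758 in input, 56790 in PABPN RIP and 3837 in PABPC RIP. Its input level exceeded that of 99.7% of the 1661 lncRNA genes. The log2 fold change was -3.81 (SE 0.131, DESeq2 adjusted p = 1.79e-184) with PABPC, 14-fold lower than input, and 0.079 (SE 0.119, adjusted p = 0.647) with PABPN. Per kilobase of exonic length the PVT1 input mean was 2154 normalised counts, against 1000 for NORAD, 786 for DANCR, 468 for TUG1, 424 for OIP5-AS1 and 233 for CYTOR, in the PABPN table. Intronic reads are counted in these levels while exonic length is the divisor, and their part in the levels was not tested.

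**Figure D2:**
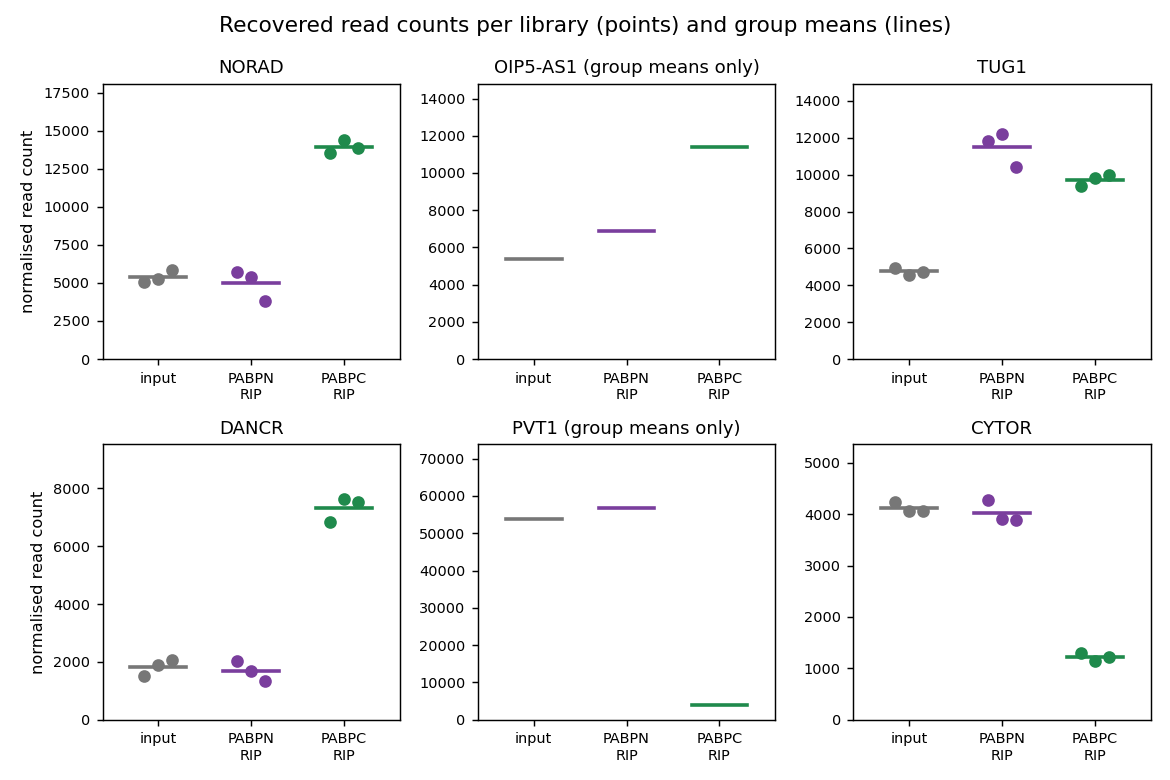
Normalised read counts (y axis, from 0, one scale per gene) in input, PABPN RIP and PABPC RIP (x axis); points are single libraries in order of falling size factor, recovered for NORAD, TUG1, DANCR and CYTOR, and lines are group means. PABPC RIP points lie above all inputs for NORAD, TUG1 and DANCR and below them for CYTOR, and PABPN RIP points lie above all inputs for TUG1 alone of the 4.

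Ordered by PABPC fold change, the 6 ran DANCR, NORAD, OIP5-AS1, TUG1, CYTOR and PVT1. DANCR exceeded NORAD by 0.64 (95% interval 0.30 to 0.97). Neither NORAD and OIP5-AS1, 0.28 apart (-0.011 to 0.57), nor OIP5-AS1 and TUG1, 0.048 apart (-0.23 to 0.32), differed beyond the interval. TUG1 exceeded CYTOR by 2.78 (2.51 to 3.05), and CYTOR exceeded PVT1 by 2.06 (1.74 to 2.39). With PABPN the order was TUG1, OIP5-AS1, PVT1, CYTOR, DANCR and NORAD. TUG1 stood 0.92 above OIP5-AS1 (0.63 to 1.21), and no later pair of neighbours differed beyond its interval.

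In which RIP a lncRNA was relatively more enriched was taken up by the difference of the 2 log2 fold changes, PABPN minus PABPC. The difference was tested with a two-sided normal test adjusted over 14581 genes. Higher means an adjusted p of no more than 0.01 and a difference beyond 0.5. Each RIP was scaled to its own libraries, so the difference compares relative levels and not the amount of an RNA held by each protein. Of the 6, 2 were higher with PABPN (PVT1 and CYTOR) and 3 higher with PABPC (DANCR, NORAD and OIP5-AS1). Among all genes 36.1% were higher with PABPN and 33.4% higher with PABPC, and among the 1661 lncRNA genes 69% and 6.74%. As both fold changes share the inputs, the error used, which adds both, is wider than that of the RIPs alone.

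PVT1 had a difference of 3.89 (error 0.177, adjusted p = 6.71e-105 by the normal test), or 14.8-fold, larger than that of 95.9% of lncRNA genes. CYTOR had 1.71 (error 0.14, adjusted p = 2.42e-33), close to the middle of the lncRNA genes, whose median was 1.60. DANCR had -2.11 (error 0.22, adjusted p = 3.35e-21), or 4.33-fold towards PABPC, and only 0.843% of lncRNA genes had a lower value. The difference of NORAD was -1.48 (error 0.186, adjusted p = 5.4e-15), with 2.53% of lncRNA genes lower. For OIP5-AS1 it was -0.73 (error 0.15, adjusted p = 2.48e-06). The difference of TUG1 was 0.24, with a 95% interval of -0.035 to 0.51. It passed neither the size cut-off of 0.5 nor the normal test (adjusted p = 0.108). With the shared input taken out, its error was 0.0984 in place of 0.14, and TUG1 was still not called. Its lowest recovered PABPN RIP count, 10422, was above its highest PABPC RIP count of 9980.

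**Figure D3:**
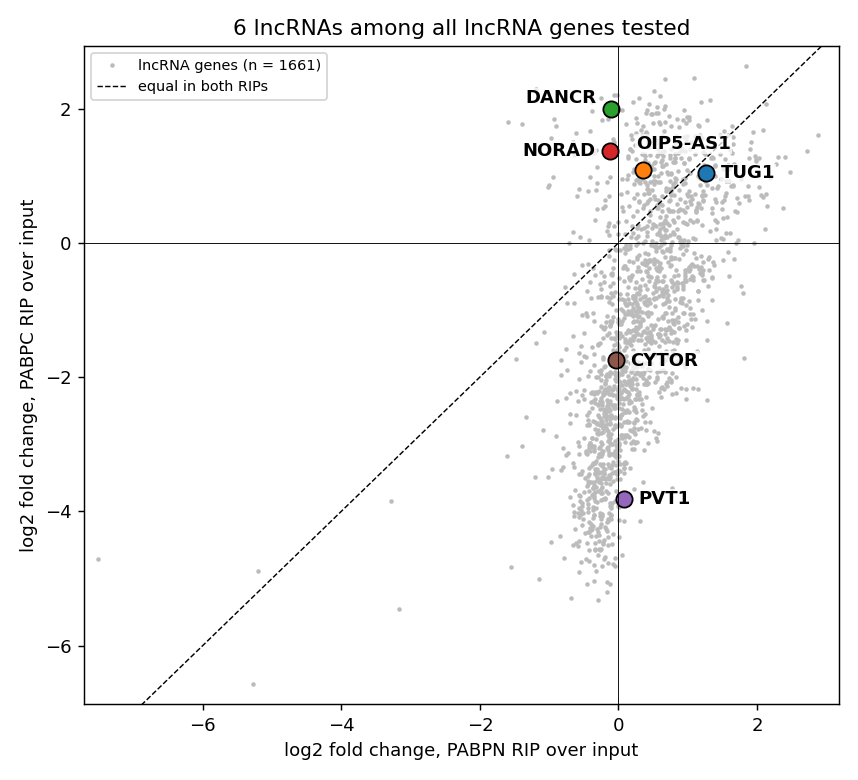
Log2 fold change over input with PABPN (x axis) against that with PABPC (y axis) for 1661 lncRNA genes (grey) and the 6 named genes, of which TUG1 is protein coding in the tables; both axes share the input libraries. DANCR, NORAD and OIP5-AS1 lie above the dashed line of equal values, TUG1 just under it, and CYTOR and PVT1 far below it.

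The lncRNAs most like each member were taken as the 3 nearest in this plane among named lncRNAs above the baseMean minimum in each table. For NORAD these were CCDC144NL-AS1, ZNF687-AS1 and SNHG5, at distances of 0.0749 to 0.146, and SNHG5, a snoRNA host, had -0.057 (SE 0.0971) for PABPN against 1.50 (SE 0.129) for PABPC. OIP5-AS1 was nearest to LINC01719, WAC-AS1 and HAGLR, and TUG1 to C10orf95-AS1, ID2-AS1 and RASSF8-AS1. DANCR was nearest to BAIAP2-DT, GIHCG and ST20-AS1. PVT1 was nearest to PKIA-AS1, LINC02595 and LINC01619, and CYTOR, after its copy, to HAND2-AS1 and NDUFA6-DT. Of these 18 genes, CCDC144NL-AS1 and ZNF687-AS1 were among the least read, with baseMean of 53 and 61.4 in the PABPN table. Their PABPN standard errors of 0.289 and 0.295 are larger than their distances from NORAD. The same held for every other gene of the 18 except SNHG5, with 0.0971 against a distance of 0.146. The order of the nearest lncRNAs is therefore not resolved.

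Since intronic reads were counted with exonic ones, the members were also set beside lncRNAs with introns of like length. The 1649 lncRNAs of the 1661 with an entry in GENCODE 44 (99.3%) were ordered by intronic bases and divided into 5 groups. From the group with the shortest to that with the longest introns the median PABPC log2 fold change was 0.87, -0.46, -1.16, -2.02 and -3.13, and the median PABPN value was 0.75, 0.51, 0.32, 0.019 and -0.17. Across these genes, which are not independent replicates, Spearman's rho with intronic bases was -0.68 for PABPC and -0.52 for PABPN.

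The 3 members with few or no intronic bases by this count, NORAD (0), TUG1 (0) and DANCR (1120), fall in the range of the group with the shortest introns. TUG1 counts as 0 because its whole span is exonic in at least 1 annotated transcript, although its canonical transcript has 3 exons. With PABPC NORAD, TUG1 and DANCR were higher than 71.1%, 56.1% and 94.5% of that group. With PABPN NORAD and DANCR were higher than only 12.5% and 13.1% of it, and TUG1 than 76.1%. OIP5-AS1, with 16065 intronic bases, is in the second group and exceeded 88.8% of it with PABPC, where the group's upper quartile was 0.57. CYTOR (164178 intronic bases) and PVT1 (367145) are in the last group. There CYTOR was higher than 86.6% of the group with PABPC, and PVT1 than 25.3%. With PABPN both exceeded the group median of -0.17, being higher than 69.2% and 81.1%. GENCODE 44 is not the annotation the reads were counted on. Its spans less the exonic lengths of the tables leave 8971 bases for DANCR and 25762 for OIP5-AS1. These remainders mix both annotations. The authors' annotation left out bases that overlapping genes share, so the remainders need not all be intronic. With those lengths, an alternative chosen after seeing the data, DANCR falls in the second group and OIP5-AS1 in the third, where with PABPC they were higher than 100% and 97% of the group and with PABPN than 14.6% and 52.6%. The other 4 members kept their group. The part of intronic reads in any of these values was not tested.

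**Figure D4:**
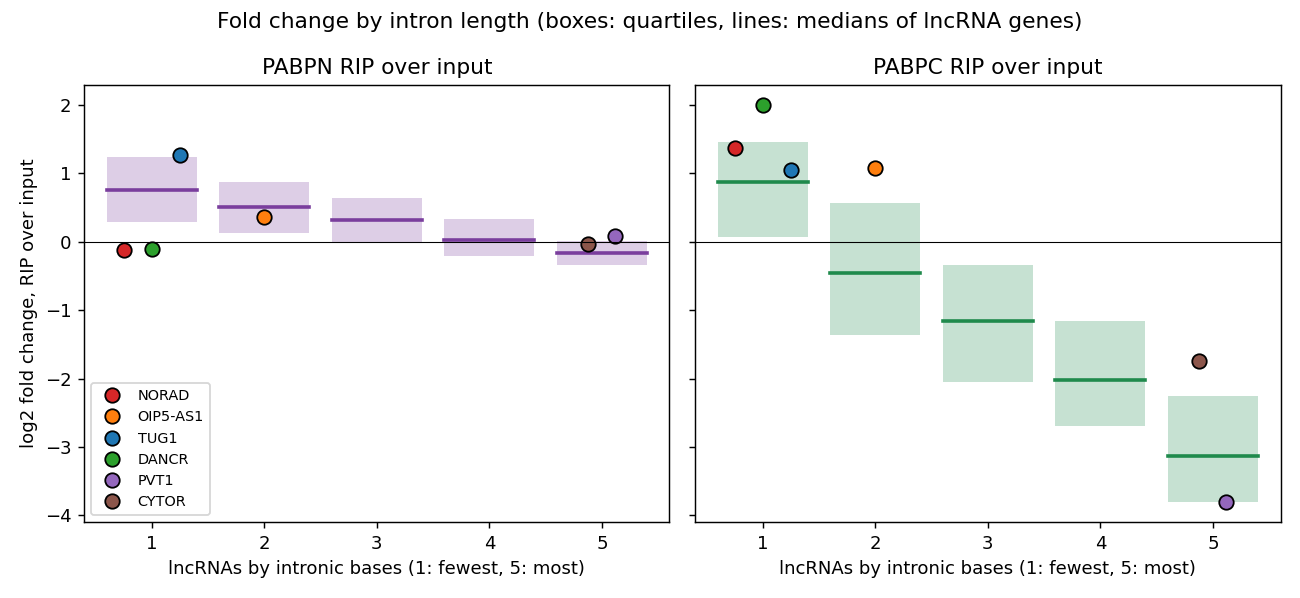
Log2 fold change of PABPN RIP (left) and PABPC RIP (right) over input on the y axis, by group of lncRNAs with the fewest (1) to the most (5) intronic bases on the x axis; boxes span the quartiles, lines are medians and points are the 6 named genes. With PABPC DANCR, OIP5-AS1 and CYTOR lie above the box of their group and PVT1 at the lower edge of its own, and with PABPN TUG1 and PVT1 lie above the box and NORAD and DANCR below it.

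Partner genes and neighbours of the 6 were followed as a list of 10 chosen for their links to them. Of the 10, 6 were enriched and 2 depleted with PABPC, where 38.4% and 32.4% of all genes tested were. With PABPN 0 were enriched by DESeq2 and 3 were depleted (KHDRBS1, HNRNPK and MYC), against 17.5% and 14.6% of all genes. At an unadjusted Wald p below 0.05, with no size cut-off, 0 were up and 5 down with PABPN. The median log2 fold change of the 10 was 0.73 with PABPC, against 0.14 over all genes tested, and -0.24 with PABPN, against -0.041. The mRNA of PUM2, whose protein NORAD holds through the motifs printed above, was depleted with PABPC at -0.88 (SE 0.122), where NORAD was enriched. The mRNAs of RBMX and KHDRBS1, RNA-binding proteins reported to bind NORAD, were enriched with PABPC at 0.83 (SE 0.12) and 0.80 (SE 0.123). ELAVL1, which encodes HuR, a protein that binds OIP5-AS1, was enriched with PABPC at 1.18 (SE 0.18) and not called with PABPN.

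HNRNPK, whose intron gives rise to miR-7, was depleted with PABPN (-1.29, SE 0.126) but enriched with PABPC (0.70, SE 0.145). MYC, the coding neighbour of PVT1, was depleted with PABPN (-0.92, SE 0.142) and enriched with PABPC (0.79, SE 0.128), where PVT1 had -3.81. OIP5, which overlaps OIP5-AS1 on the other strand, had a PABPN value of 0.0076 (SE 0.127) and was enriched with PABPC (0.76, SE 0.151). The RNA libraries were strand-specific, but whether strand was used in counting is not given in the sources used here, so reads of OIP5 and OIP5-AS1 may be mixed, although the annotation left out bases that overlapping genes share. MORC2 and USP46, the neighbours of TUG1 and DANCR, were called in neither comparison.

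A wider list of 20 studied lncRNAs gave a reference for the 6. With PABPC, 5 of the 16 that could be tested were enriched and 8 depleted, where 21.3% of all lncRNA genes tested were enriched and 59.8% depleted. With PABPN 8 of 17 were enriched and 2 depleted, where 28.3% and 3.94% were. GAS5, SNHG1, EPB41L4A-AS1 and LINC00667 were enriched with both proteins, as TUG1 was. FTX (-2.79, SE 0.122), JPX (-1.76, SE 0.0939), FIRRE (-2.22, SE 0.0941), LINC-PINT (-3.45, SE 0.11) and MIAT (-2.22, SE 0.258) were depleted with PABPC and not called with PABPN, as CYTOR and PVT1 were. SNHG5 alone of the list was enriched with PABPC and not with PABPN, as DANCR, NORAD and OIP5-AS1 were.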

How the data were processed

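HEK293T RIP and input libraries (75 nt single-end, ribodepleted) were aligned by the authors to hg38 with STAR and counted with featureCounts 2.0.2 (minimum overlap 20) on an annotation derived from GENCODE 34, introns and exons together. Of the DESeq2 results deposited by the authors, the log2 columns hold each RIP-to-input fold change with its standard error, the score column the Wald statistic and the p-value columns the Wald p and its Benjamini-Hochberg adjusted value. The signal column they deposited, baseMean, is a mean of read counts divided by size factors. Gene length is in bases. These comparison columns are the measurements used here. Tables held 51234 and 51391 rows, and 123 repeated rows in each were dropped.

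Members and lists were chosen with earlier results of these data known. The rule for named genes was all members, the 3 nearest lncRNAs of each, and fixed lists of partners, other lncRNAs and HEK293T markers. Of the 20 lncRNAs, MEG3 and H19 had baseMean below 50, HOTAIR did so with PABPC, and 1 symbol was not matched. Of the partners planned, 1 is not reported here and was left out, so the list's counts are of the remaining 10. Group means follow from baseMean and fold change; input means of the tables differed by 0.23 on the log2 scale (SD 0.00229 over genes), by which PABPC RIP levels were rescaled. Depth is size factor, read from genes with 1 read, times the sum of group means. The difference test was run on simulated fold changes with independent normal errors of the deposited size, which checks the calculation only. The inputs that both fold changes share were not simulated.

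Read counts per library were solved, after seeing the data, as whole numbers that meet both deposited means and both fold changes (within 1e-06), with the dispersion that gives the deposited standard error. A first form of the search that did not use the fold changes gave several solutions per gene and was dropped. A gene was taken as recovered only with exactly 1 solution among the candidates searched, which were not all possible sets of counts. On simulated counts with known answers, 40 per member, 108 of 240 gave a sole solution, of which 0 were wrong. It was found for 39 of 40 at the means of DANCR, 40 of CYTOR, 8 of NORAD and 8 of TUG1, 13 of OIP5-AS1 and 0 of PVT1, and several solutions were found otherwise. P-values cover the spread between 3 replicates per group. Python 3.11.15, numpy 2.4.6, pandas 2.3.3, scipy 1.17.1 and matplotlib 3.10.9 were used.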

Additional observations from a re-analysis of the deposited data

How the results depend on the processing

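For each RIP over input, the counts of members called stayed the same under a Wald test against 0.5 and a log2 cut-off of 1. They also stayed the same with centring on all or on protein coding genes and with recomputed adjusted p. A baseMean minimum of 200 could not change them, as the lowest baseMean of a member was 1760 (DANCR, PABPN table). For the difference between RIPs the counts of members called stayed the same with the shared input taken out or centred. They did so too at baseMean above 200, which for the members changed only the set of genes over which p was adjusted. With differences beyond 1 OIP5-AS1 was lost, leaving 2 in place of 3 higher with PABPC. The PABPN value of CYTOR, not called, was -0.035 and turned to 0.0062 when centred on all genes. No paired analysis was possible because the deposited tables carry no replicate numbers. Leaving out each recovered library in turn, chosen after seeing the data, gave log2 ratios with PABPC of 1.32 to 1.43 for NORAD, 1.01 to 1.07 for TUG1, 1.89 to 2.10 for DANCR and -1.79 to -1.70 for CYTOR. With PABPN they were 1.23 to 1.34 for TUG1, -0.23 to 0.038 for NORAD, -0.27 to 0.03 for DANCR and -0.081 to -0.012 for CYTOR. The spread of OIP5-AS1 and PVT1 is known from standard errors alone, and no library could be left out for them.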
